A study of Mus musculus with 6 samples.

Results

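The angiopoietin and VEGF genes are described here across 6 Affymetrix arrays of mouse embryonic fibroblasts (MEFs), connective tissue cells cultured from minced embryos. Their members were chosen by name: Angpt1, Angpt2, Angptl2 and Angptl4 of the angiopoietin family, the ligands Vegfa, Vegfb, Vegfc and Pgf, and the receptors Flt1 and Kdr. A gene entered when a probe set was assigned to it alone, and the brightest such probe set, by its mean on the 6 arrays, stood for it. This found 9 of the 10 genes, with 18 probe sets, among 18193 genes measured. Angptl2 had no such probe set and was not analysed here. The study asked what the Abl kinases do for transcription, and compared 3 arrays of wild-type fibroblasts (WT) with 3 arrays labelled as c-abl/arg knockout (DKO), that is, without the kinases encoded by Abl1 and Abl2. Both groups came from C57BL/6 embryos at 14 days of gestation, of both sexes pooled, and were grown in the same medium with 10% fetal bovine serum. No other treatment is named. Nothing in the labels says whether the 3 samples of a group were separate cultures or embryos, so p-values here reflect the spread among the arrays alone, and that spread may be only technical.

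Angiopoietins and VEGFs are secreted ligands that build and maintain blood and lymphatic vessels. VEGF-A, the main driver of vessel sprouting, signals through the tyrosine kinase receptor VEGFR2 (gene Kdr), while VEGFR1 (gene Flt1) binds VEGF-A tightly and can act as a decoy. Of the VEGF receptor kinases, VEGF-B and placental growth factor (gene Pgf) bind VEGFR1 only. VEGF-C signals mainly through VEGFR3 (gene Flt4) on lymphatic endothelium. Angiopoietin-1 activates the receptor Tie2 (gene Tek) on endothelial cells and steadies vessels, and angiopoietin-2 modulates the same receptor depending on context. Fibroblasts and mural cells are known as sources of several of these ligands, whereas the receptors belong mostly to endothelium. Low oxygen acts on Vegfa and other members through the HIF transcription factors, and the angiopoietin-like protein ANGPTL4, an inhibitor of lipoprotein lipase, is a target of both HIF and PPAR factors.

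The sequences before the start sites of the VEGF ligands that differed between the groups are shown because the ligands moved in both directions. Each is the 250 bases before a RefSeq transcription start in the mouse build GRCm38.p6, read 5′ to 3′ on the strand of the gene, with the HIF core motif (ACGTG or GCGTG on either strand) in capitals. The Vegfa window, before the first of 2 listed starts, is chr17:46032378-46032627 on the minus strand. The Vegfb window is chr19:6987652-6987901 on the minus strand, the Vegfc window chr8:54077282-54077531 on the plus strand, and the Pgf window, before the first of 2 starts, chr12:85177314-85177563 on the minus strand.
Vegfa: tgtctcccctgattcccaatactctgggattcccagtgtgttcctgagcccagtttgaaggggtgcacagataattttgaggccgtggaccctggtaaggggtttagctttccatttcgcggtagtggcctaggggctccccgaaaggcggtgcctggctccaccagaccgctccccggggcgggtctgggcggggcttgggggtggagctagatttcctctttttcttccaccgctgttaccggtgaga
Vegfb: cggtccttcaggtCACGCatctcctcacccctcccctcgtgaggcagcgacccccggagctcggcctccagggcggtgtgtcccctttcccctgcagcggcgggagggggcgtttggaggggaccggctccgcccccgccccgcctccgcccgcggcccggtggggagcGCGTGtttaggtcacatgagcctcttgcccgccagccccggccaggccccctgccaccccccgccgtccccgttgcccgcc
Vegfc: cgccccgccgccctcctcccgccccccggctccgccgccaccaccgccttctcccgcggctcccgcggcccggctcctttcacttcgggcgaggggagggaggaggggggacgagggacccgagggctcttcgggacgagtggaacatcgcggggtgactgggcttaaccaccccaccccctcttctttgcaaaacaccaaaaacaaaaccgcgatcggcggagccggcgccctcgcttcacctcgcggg
Pgf: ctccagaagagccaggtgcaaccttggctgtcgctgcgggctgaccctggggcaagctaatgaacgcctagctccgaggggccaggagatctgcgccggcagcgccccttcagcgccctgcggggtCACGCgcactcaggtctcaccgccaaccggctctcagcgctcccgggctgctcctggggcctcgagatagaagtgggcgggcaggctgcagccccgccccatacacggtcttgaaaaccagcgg

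The promoter table held 8 such windows for 6 of the 9 measured members. Angpt1, Angpt2 and Angptl4 had none there. The HIF core was found in 5 of the 8 windows, against 38.6% of 32851 windows of the same length in the table. It occurred at 237 and 81 bases before the Vegfb start, at 124 before the first Pgf start, at 184 before the Flt1 start and at 131 and 89 before the Kdr start. The second Vegfa window had it at 218 and 211 bases before the start, and the first had no match. The GC box (GGGCGG, either strand) was in 7 of the 8 windows, against 32.7% of all, and the second Pgf window lacked it. The cyclic AMP response element TGACGTCA stood in the Flt1 window alone of the 8, and in 1.55% of all windows. No member window held the AP-1 motif TGANTCA, found in 6.75% of all; these are matches of letters only. The windows of genes that were higher in DKO, lower in DKO and not called all included some with a HIF core.

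The targeted genes were not clearly lower in the arrays labelled knockout. The brightest Abl1 probe set had signals of 185 ± 4.46 in WT and 169.8 ± 8.22 in DKO (SD, n = 3 each; log2 difference -0.11, limma adjusted p = 0.107 over all probe sets), and that of Abl2 256 ± 9.30 and 254 ± 11.9 (-0.01, limma adjusted p = 0.888). The 2 dimmer Abl1 probe sets were called higher in DKO, by 0.28 and 0.21 (limma adjusted p = 0.00586 and 0.0012). Where these probes lie relative to the deleted parts was not analysed here, so every direction below is that of the arrays labelled knockout. Arrays correlated at 0.998 or more within a group and at most at 0.904 between groups, across genes, which are not independent replicates. Median signals were 13.4 to 14.7 per array. Fibroblast markers differed widely between the groups: of 13, 8 were higher in DKO and 2 were lower. The brightest were Vim, Col1a2 and Col3a1 in WT, and Vim, Fn1 and Prrx1 in DKO. Lum, called higher, and Thy1, not called, were below the array median on all 6 arrays. Pdgfra averaged 9.99 in WT and 1789 in DKO. The collagen genes Col1a2 and Col3a1 were the 2 that fell, averaging 2284 and 1934 in WT and 9.71 and 14.9 in DKO. Their log2 differences were -6.48 and -5.99.

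Of the 9 member genes, 6 rose in the arrays labelled knockout (Angpt1, Angpt2, Angptl4, Vegfa, Vegfb and Vegfc), Pgf fell, and Flt1 and Kdr did not pass the test. A gene was called at an adjusted p under 0.05 in limma, fitted over all 18193 genes on log2(signal + 16) with Benjamini-Hochberg adjustment. By that rule 59.8% of all genes were called, 24.3% higher and 35.5% lower, so being called is common in these data. The counts of called genes in each list, above and below, are to be read beside these shares. The median log2 difference of the 9 members was 0.54, beside -0.03 over all genes. Angpt1, Angptl4 and Vegfc rose at least 2-fold, as did 7.06% of all genes. The WT and DKO signals did not overlap for 7 members, which held for 64.7% of all genes. Among all 18 probe sets of the members 10 were called higher, 1 lower and 7 were not called, and of all probe sets on the array 52.2% were called. In RNA of whole cultures, fewer expressing cells and less RNA per cell cannot be told apart, here or below.

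**Figure D1:**
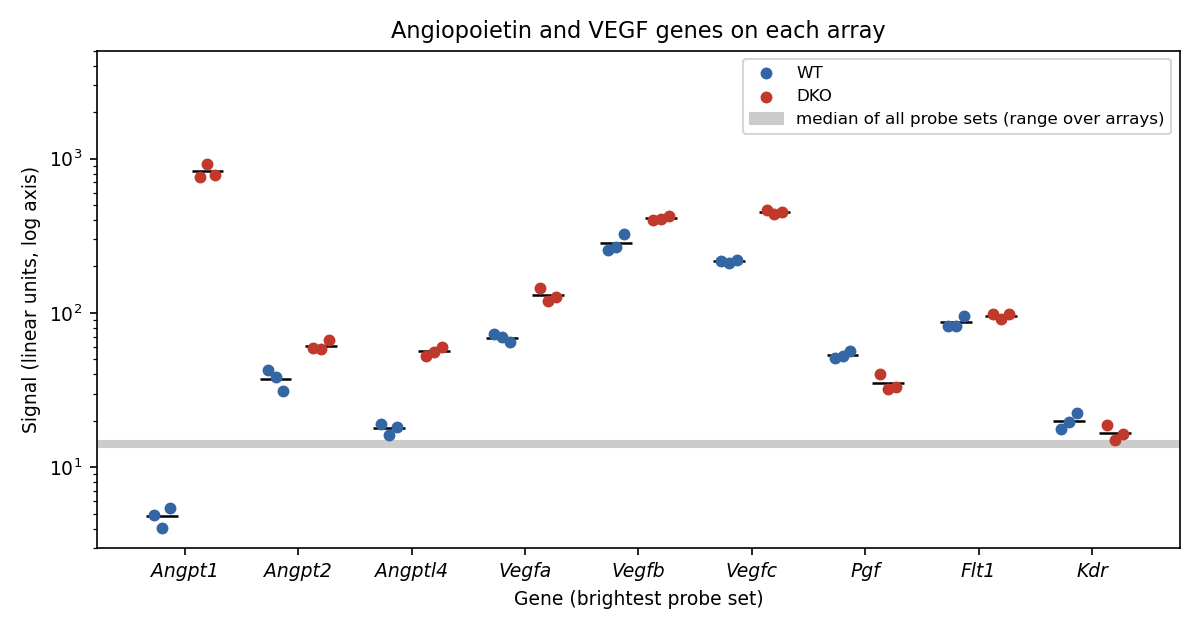
Signal (linear units on a log axis) of the brightest probe set of each of the 9 genes on the 3 WT and 3 DKO arrays, as points, with group means as dashes and the range of the array medians, 13.4 to 14.7, as a grey band. Angpt1 lies below the band on all WT arrays and at 762 to 927 on the DKO arrays, and only Flt1 and Kdr overlap between the groups; signals of different probe sets are not comparable as levels.

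Angpt1, the activating ligand of Tie2, had by far the widest difference among the members. Its brightest probe set, 1439066_at, gave signals of 4.89, 4.01 and 5.47 on the WT arrays and 762, 927 and 789 on the DKO arrays. All WT signals lay below the median of their array, and no DKO signal came near them. This gave a log2 difference of 5.34 (SE 0.08, 95% interval 5.17 to 5.51, limma adjusted p = 4.64e-14). Because a WT signal near the floor of the array sets this difference, it depended on the constant added before the log: it was 7.16 with 1 and 3.69 with 64. The second probe set, 1421441_at, gave 6.79, 7.78 and 8.15 in WT and 248, 308 and 318 in DKO, a difference of 3.70 (SE 0.09). Both probe sets thus showed a gene near the floor in WT and well above the array median in all 3 DKO arrays.

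The genes most like Angpt1 over the 6 arrays, by Euclidean distance of log2(signal + 16) among 18192 other genes, were Slc7a2, Sema5a and Cd302. Slc7a2 encodes a transporter of cationic amino acids, Sema5a a transmembrane semaphorin and Cd302 a C-type lectin receptor. Their distances were 0.322, 0.374 and 0.406. Their WT signals ran from 3.46 to 5.95 and their DKO signals from 868 to 965. With 2 groups of 3 arrays, such likeness mostly says that a gene is near the floor in WT and at a similar signal in DKO.

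Angpt2, the context-dependent Tie2 ligand, rose much less. The probe set 1448831_at gave 42.7, 38.2 and 31.2 in WT and 59.0, 58.6 and 66.4 in DKO. Every DKO array was above every WT array, though the WT signals were spread over a wide range. They differed by 0.54 on the log2 scale (SE 0.09, 95% interval 0.34 to 0.74, limma adjusted p = 0.000242). Its second probe set, 1459636_at, was below the array medians throughout, at 2.49 to 3.27 in WT and 3.28 to 4.30 in DKO. That difference was 0.06 (limma adjusted p = 0.0415 over all probe sets). The mean of both probe sets gave 0.30 for the gene, and adding 64 in place of 16 gave 0.31, both still called.

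The Tie2 side of the pathway was dim. Tek, the gene of Tie2 itself, gave 2.89, 3.63 and 3.57 in WT and 3.44, 3.19 and 3.76 in DKO, and Tie1, the gene of its partner receptor, 3.69, 3.86 and 3.77 against 4.35, 2.67 and 3.19. Both were below the median of every array, overlapped between the groups and did not pass as deposited (log2 differences 0.01 and -0.03, limma adjusted p = 0.788 and 0.426). Other settings changed this: relative to poly-A controls Tek was called higher at 0.10, and Tie1 was called lower at -0.08 relative to array medians and to hybridization controls and at -0.06 without DKO array 1. Ptprb, the gene of the endothelial phosphatase that acts on Tie2, was below the median of every array as well. The fold of genes this dim is understated by the added 16, and an absence of RNA cannot be read from these signals.

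Angptl4, the lipoprotein lipase inhibitor, rose on its brighter probe set. The probe set 1417130_s_at gave 19.0, 16.3 and 18.2 in WT and 52.7, 55.9 and 60.1 in DKO. The groups lay far apart and the DKO arrays were close to each other. On the log2 scale the difference was 1.09 (SE 0.07, 95% interval 0.93 to 1.26, limma adjusted p = 4.39e-08). The other probe set, 1453410_at, was at 1.82 to 2.29 on all 6 arrays, with a difference of 0.00 (limma adjusted p = 0.885). The rise therefore rests on a probe set whose ID ends in s, a mark of probes shared between transcripts; adding 64 in place of 16 gave 0.55, and without such probe sets the gene was at 0.00 and was not called (limma adjusted p = 0.89).

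Of the other angiopoietin-like genes, whose products do not bind Tie2, 4 of 6 were measured, 1 rose and 1 fell, and 2 were not called. Angptl6 fell from 389, 402 and 359.7 in WT to 28.0, 18.6 and 26.9 in DKO, a log2 difference of -3.31 (SE 0.09). Angptl7 rose from 10.3, 11.5 and 12.8 to 181, 194 and 197, a difference of 2.91 (SE 0.08). Both have 1 probe set and showed no overlap. The list median was 0.02, beside -0.03 over all genes, and it turned to -0.02, -0.03 and -0.10 under quantile, median and hybridization spike scaling.

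Angptl4 acts on lipoprotein lipase, and genes of that enzyme and of the PPAR factors did not move one way. Of 11 measured, 5 rose and 4 fell, with a median of 0.01 (-0.04 under both median and hybridization spike scaling and 0.22 under poly-A spike scaling). Lpl, the lipase gene, went from 6.84, 8.52 and 10.2 to 17.0, 13.9 and 14.9, a log2 difference of 0.35. Ppard, the gene of a PPAR receptor, fell by 0.67, and Plin2, which coats lipid droplets, rose by 0.56. Rxra, the partner receptor, was at 0.88 on its brightest probe set and at 0.04, not called, with its probe sets averaged. Pparg and Cpt1a also rose (0.25 and 0.34), Cpt1a without a call relative to hybridization controls. Of the called genes, Pparg and Lpl were below the array median on all WT arrays, and Ppara on every array. Lmf1, Ppara and Pdk4, the others that fell, were at -0.23, -0.11 and -0.34, but above 0 relative to poly-A controls. The number that fell was 2 without DKO array 1 and 2 without WT array 2.

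Among the VEGF ligands, Vegfa rose, but its probe sets differed in how far. The probe set 1420909_at gave 72.7, 69.4 and 64.6 in WT and 144, 119.6 and 126 in DKO. All DKO signals were above all WT signals. The log2 difference was 0.78 (SE 0.08, 95% interval 0.61 to 0.95, limma adjusted p = 1.81e-06). The second, 1451959_a_at, gave 84.4, 82.9 and 88.8 in WT and 91.4, 93.1 and 112 in DKO. It showed no overlap either, but its difference of 0.18 did not pass (95% interval 0.01 to 0.34, limma adjusted p = 0.0684 over all probe sets). Within an array, the log2 ratio of the first to the second was -0.31 ± 0.13 in WT and 0.40 ± 0.25 in DKO (SD, n = 3 each), with no overlap (two-sided exact permutation p = 0.1, the smallest that 3 arrays against 3 allow, and 0.2 after Benjamini-Hochberg adjustment over 6 such ratios). The scaling of the arrays cancels in this ratio, which compares 2 probe sets and not named transcripts. With both averaged, Vegfa was at 0.48 and called.

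Vegfb, the ligand of VEGFR1, rose moderately. Its single probe set, 1451803_a_at, gave 255, 266 and 327 in WT and 398, 409 and 427 in DKO. WT array 3 was the highest of its group and still below every DKO array. DKO was higher by 0.53 on the log2 scale (SE 0.08, 95% interval 0.36 to 0.69, limma adjusted p = 5.21e-05).

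Vegfc, the lymphatic ligand, rose on all 3 of its probe sets. The brightest, 1440739_at, gave 217, 209 and 221 in WT and 462, 436 and 449 in DKO. The groups were tight and far apart. The log2 difference was 1.01 (SE 0.04, 95% interval 0.91 to 1.11, limma adjusted p = 7.71e-10). The second, 1419417_at, gave 129, 126 and 146 against 254, 291 and 295, a difference of 0.98 (SE 0.07). The third, 1439766_x_at, gave 85.5, 94.2 and 77.4 against 146, 156 and 141, a difference of 0.69 (SE 0.07). The ratios between the probe sets overlapped between the groups, with differences of -0.01 and 0.27 (exact permutation p = 0.9 and 0.2).

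Pgf, the placental growth factor gene, was the only member that fell. Its single probe set, 1418471_at, gave 50.6, 52.3 and 56.4 in WT and 40.0, 32.0 and 33.2 in DKO. All DKO signals were below all WT signals. On the log2 scale the difference was -0.44 (SE 0.08, 95% interval -0.62 to -0.26, limma adjusted p = 0.000543). It was -0.24, still called, with 64 added in place of 16. The call depended on the scaling of the arrays: the difference was -0.63 relative to hybridization spike controls but -0.06 relative to poly-A spike controls, where it did not pass (limma adjusted p = 0.634).

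**Figure D2:**
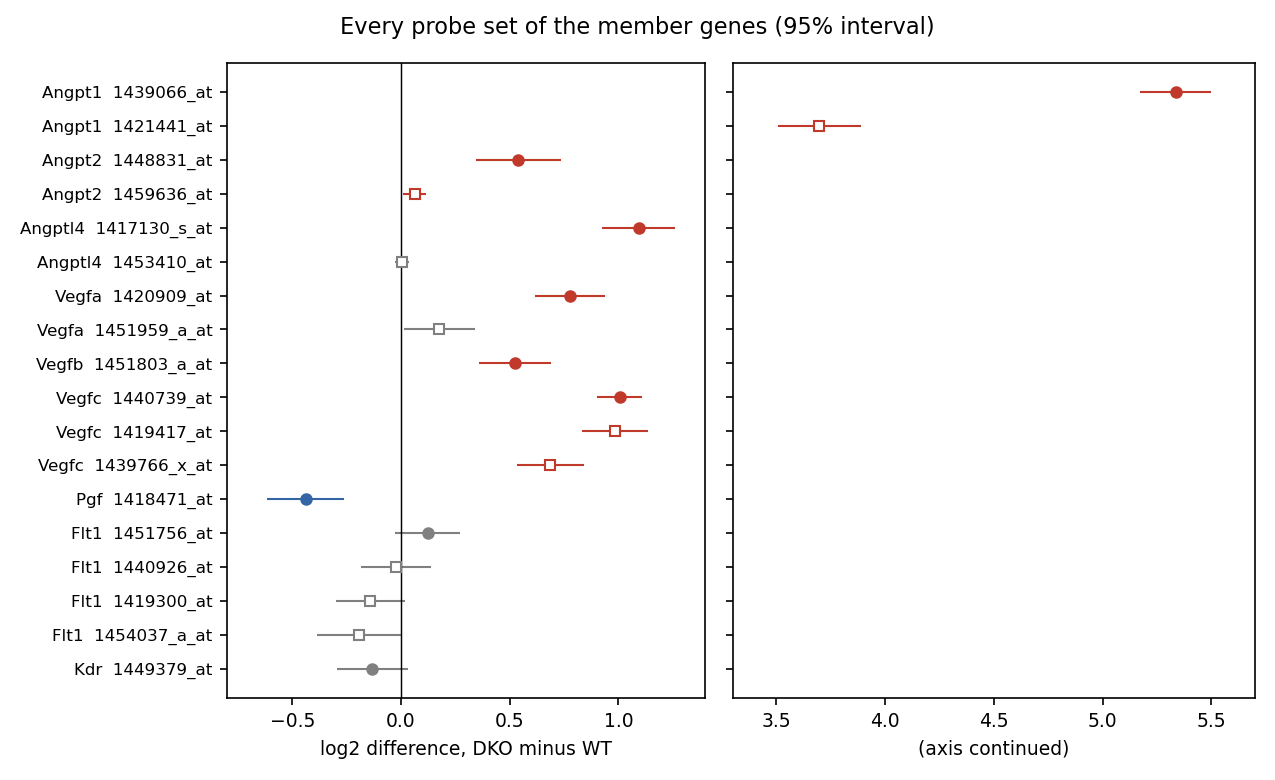
Log2 difference (DKO minus WT, log2(signal + 16)) of each of the 18 probe sets with its 95% interval, filled circles for the brightest probe set of a gene and open squares for the others, in red where called higher, blue where called lower and grey where not called. The horizontal axis is broken between the panels, which have the same scale; the Angpt1 probe sets lie at 5.34 and 3.70, and both the second Angptl4 probe set and the second Vegfa probe set, at 0.00 and 0.18, are grey beside called ones.

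The receptors Flt1 and Kdr gave no call. Flt1, the gene of VEGFR1, had 82.7, 82.4 and 95.6 in WT and 98.2, 91.2 and 98.3 in DKO on 1451756_at. These overlapped, with a log2 difference of 0.12 (95% interval -0.04 to 0.28, limma adjusted p = 0.173). Its 3 other probe sets leaned the other way, at -0.02, -0.14 and -0.19 (limma adjusted p = 0.818, 0.129 and 0.0877 over all probe sets). Relative to the brightest, the last 2 were lower in DKO on every array: the log2 ratio of the brightest to 1419300_at was 1.11 ± 0.05 in WT and 1.45 ± 0.04 in DKO, and to 1454037_a_at 1.37 ± 0.18 and 1.81 ± 0.16 (SD, n = 3 each; exact permutation p = 0.1 for each, the smallest possible). The ratio to 1440926_at differed by 0.18 and overlapped (exact permutation p = 0.3). The sign for the gene thus depended on the probe set, and with all probe sets averaged it was -0.06.

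Kdr, the gene of VEGFR2, was dim in both groups. Its single probe set, 1449379_at, gave 17.6, 19.5 and 22.4 in WT and 18.7, 15.1 and 16.3 in DKO. DKO array 1 lay within the WT range. The log2 difference was -0.13 (95% interval -0.28 to 0.01, limma adjusted p = 0.111). Flt4, the gene of VEGFR3, gave 16.3, 20.9 and 19.9 against 18.5, 20.2 and 15.8, with a difference of -0.04 (limma adjusted p = 0.686), but was called higher at 0.24 relative to poly-A controls.

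The scaling of the arrays bears on the small differences. Poly-A spike controls, added to the RNA before labelling, averaged 7.31 to 7.53 on the log2 scale in WT and 6.83 to 7.02 in DKO, while hybridization controls, added after it, averaged 10.2 to 10.4 and 10.5 to 10.7. Scaling on the poly-A controls moved the median difference of all genes by 0.15, and scaling on the hybridization controls by -0.09. The controls also varied within a group, and their error on an array is shared by all its genes, which the test does not take into account. With poly-A controls the limma adjusted p of Angpt1 was 2.91e-143, against 4.64e-14 as deposited. Calls under the spike scalings, here and elsewhere, are therefore less secure than their p-values make them look. Of all genes called, 40.6% were higher as deposited, 39.2% after quantile scaling, 29.4% with array medians as reference, 78.7% with poly-A controls and 22.1% with hybridization controls. The 6 members that rose were called higher under each of these scalings, at the least 0.34 for Angpt2 and 0.27 for Vegfb with hybridization controls. With poly-A controls Angpt2, Vegfa and Vegfb were at 0.92, 1.22 and 1.02. Relative to the poly-A controls Flt1 was at 0.56 and called, and Kdr at 0.15 and not called. Kdr was called lower under the other 3 scalings, at -0.19, -0.18 and -0.27. Among the members, the calls for Pgf, Flt1 and Kdr therefore depended on the scaling.

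**Figure D3:**
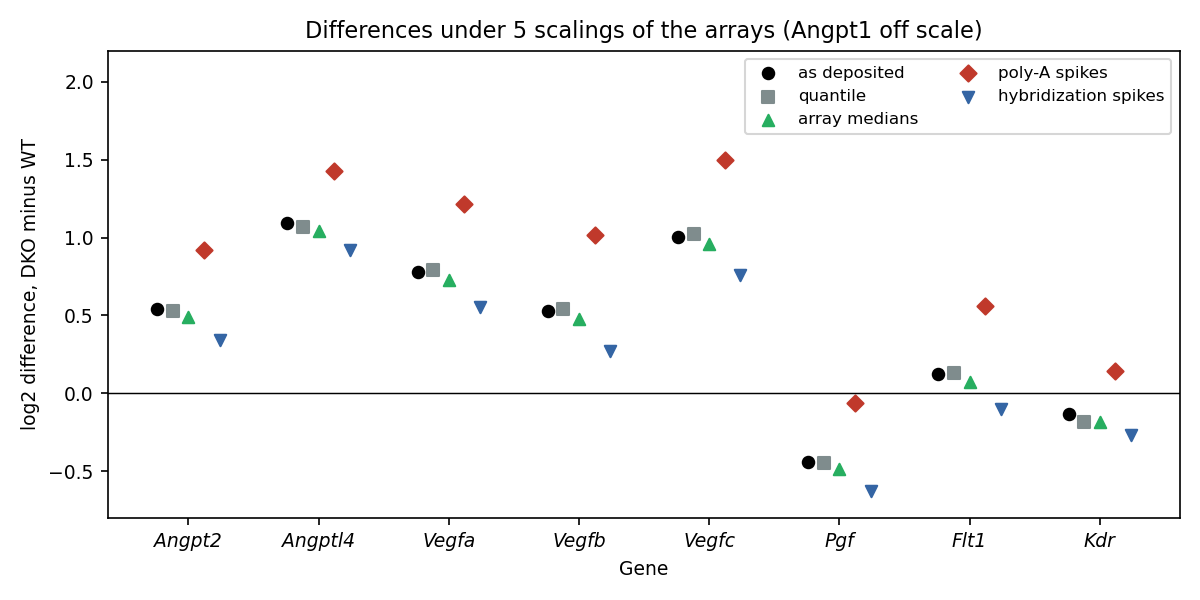
Log2 difference (DKO minus WT) of 8 members under 5 scalings of the arrays: as deposited (black), quantile (grey), array medians (green), poly-A spike controls (red) and hybridization spike controls (blue). Angpt1, at 5.18 to 5.64, is off the axis; Angpt2, Angptl4, Vegfa, Vegfb and Vegfc stay above 0 under all 5, whereas Flt1 and Kdr lie on both sides of 0.

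Among the other receptors and co-receptors of these ligands, 6 of 12 measured genes rose and 1 fell, and the median was 0.13 (-0.02 with hybridization controls as reference). Nrp1, the gene of neuropilin-1, which binds VEGF-A beside VEGFR2, rose from 70.1, 62.5 and 59.5 in WT to 644, 827 and 712 in DKO, a log2 difference of 3.21 (SE 0.08). Nrp2, whose product binds VEGF-C, rose from 244, 254 and 288 to 539.9, 581 and 561 (1.06, SE 0.06). Itgb3, an integrin subunit that pairs with integrin alpha V, rose by 3.04 (1.78 with probe sets averaged), and the heparan sulfate proteoglycan gene Sdc2 by 1.56. Itgav and Itgb1, further integrin subunit genes, were at 0.42 and 0.26 on their brightest probe sets, but at 0.07 and 0.04, not called, with probe sets averaged. Gpc1, a glypican gene, was the gene that fell (-0.94). The number that fell was 2 without DKO array 1 and 2 without DKO array 3. As deposited, then, the neuropilin genes rose and the receptor kinase genes Flt1, Kdr, Flt4, Tek and Tie1 did not pass.

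Of the genes that partner, process or oppose VEGF ligands, 9 of 18 measured rose and 5 fell, with a median of 0.12 (-0.02 with hybridization controls). Vegfd, the second lymphatic ligand, rose from 55.1, 48.1 and 55.9 to 463, 474 and 429.9, a log2 difference of 2.77 (SE 0.06). Ccbe1, whose product helps to activate VEGF-C, rose from 9.43, 6.57 and 8.76 to 555, 571 and 608 (4.62, or 2.09 with probe sets averaged, with 1 other probe set called the opposite way). Thrombospondin genes, whose products inhibit vessel growth, rose as well, Thbs1 by 4.78 and Thbs2 by 3.11. Ccn2, the gene of a matrix protein that binds VEGF-A, rose by 3.37. Class 3 semaphorins include proteins that bind neuropilins in competition with VEGF. Of the genes of this class, Sema3a (-1.65), Sema3b (-1.44) and Sema3e (-2.06) fell, whereas Sema3c rose by 2.80. Sema3f was at -0.18, but at 0.31 with poly-A controls as reference and 0.29 without probe sets of an x, s or a suffix. The chemokine gene Cxcl12 fell by 1.41. The genes that rose thus included both activators and inhibitors of these ligands.

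HIF factors act on several members, and their known targets mostly fell in the scaling as deposited. Of 22 measured target genes other than the members, 17 fell and 4 rose, with a median of -0.41. Over all genes, 35.5% were lower and 24.3% higher. With poly-A controls as reference 9 of the 22 fell and 7 rose, with a median of 0.01. Car9, a carbonic anhydrase gene, went from 134, 141 and 193 to 7.87, 7.87 and 7.04 (-2.85), Egln3, a prolyl hydroxylase gene that is also counted among the sensing genes, fell by 2.99, and Pdk1, which restrains pyruvate oxidation, fell by 1.86. Pgk1, the gene of a glycolytic enzyme, fell by 0.87. Higd1a, also counted as lower at -1.67, was at -0.40 with probe sets averaged, and its 2 other probe sets were called the opposite way. Adm, counted at -0.15, was below the median of every array and not called without probe sets of an x, s or a suffix. Stc2, a stanniocalcin gene, rose by 4.99 from signals near the floor, and the glycolysis genes Hk2 and Pfkfb3 and the demethylase gene Kdm3a rose by 0.48, 0.58 and 0.44. As deposited, Vegfa and Angptl4, themselves HIF targets, rose on their brightest probe sets, where most of this list fell. Their other probe sets were not called (0.18 and 0.00), and the member Pgf was lower (-0.44). The list's other genes were chosen as textbook targets and nothing here measured HIF activity or oxygen.

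Of 13 genes of oxygen sensing, 4 rose and 5 fell, with a median of -0.12 (0.35 with poly-A controls, where 8 rose and 3 fell). Hif1a, the main HIF alpha subunit, went from 1776, 1882 and 1633 in WT to 955, 1068 and 906 in DKO, a log2 difference of -0.84, but -0.32 as the mean of its probe sets and -0.21 when those with an x, s or a suffix were left out. Epas1, the gene of HIF-2 alpha, fell by 1.16, and Arnt2, the gene of a partner subunit, rose by 1.47, or 0.47 with probe sets averaged. Cited2, whose product restrains HIF, rose by 0.82 and the coactivator gene Ep300 by 0.54. Among the genes that turn HIF over, Vhl was at -0.51 but at -0.03, not called, relative to poly-A controls, Egln1 at -0.19 but 0.30 there, and Egln2 at 0.21 but -0.04, not called, relative to hybridization controls.

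Genes that relay signals inside the cell from these receptors were mixed. Of 15 measured, 7 rose and 4 fell, and the median was 0.06 (-0.10 with hybridization controls). The phosphoinositide 3-kinase genes Pik3r1 and Pik3ca rose by 2.71 and 1.47, and the Src family kinase gene Fyn and the adaptor gene Shb were at -1.57 and -1.18. Iqgap1, a scaffold gene, and Rcan1, a calcineurin inhibitor gene, were at -0.48 and -0.36, but at 0.03 and 0.11, not called, relative to poly-A controls.

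**Figure D4:**
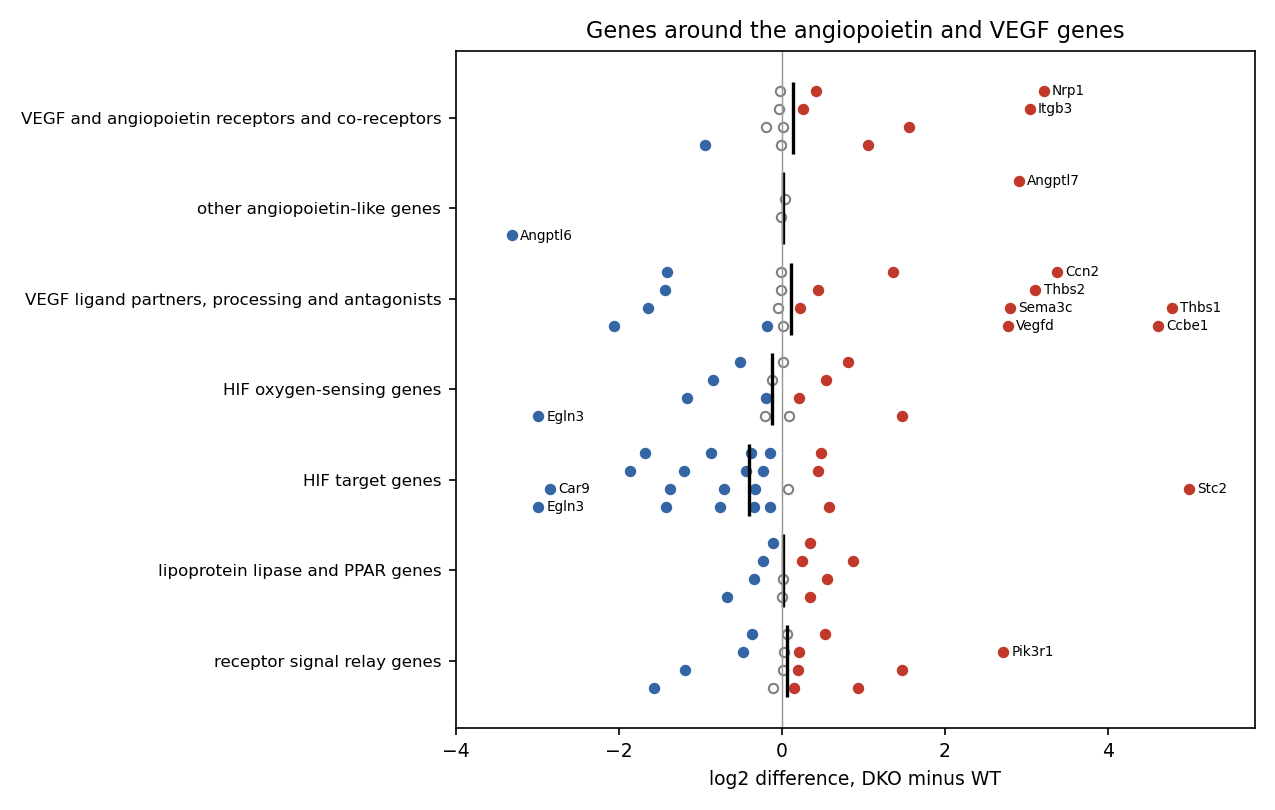
Log2 difference (DKO minus WT) of each measured gene in 7 lists around the members, with red points for genes called higher, blue for lower and open for not called, black bars for list medians and names for the widest differences. The medians run from -0.41 for HIF targets to 0.13 for receptors and co-receptors, and each list has genes on both sides of 0.

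Markers of other cells that cultures of embryonic fibroblasts could hold were mostly dim. Of 16 endothelial markers, 12 were below the array median on all 6 arrays, among them the defining genes Pecam1 and Cdh5, besides Cldn5, Emcn, Vwf, Esam, Erg, Sox17, Sox18, Robo4, Tek and Tie1. Their summed signal was 481 to 518 in WT and 199 to 218 in DKO, with 1 called higher and 5 lower. The brightest of them was Egfl7 in WT, at 279 to 299 there and 28.9 to 37.5 in DKO, and Eng in DKO, at 65.0 to 66.0 there and 45.4 to 56.1 in WT; Plvap averaged 64.3 and 31.5. As deposited, Eng was called higher, and Egfl7, Plvap, Mmrn2, Sox18 and Vwf lower. These counts depended on the scaling: 6 were higher and 2 lower relative to poly-A controls, and 11 were lower relative to array medians (1 higher) and to hybridization controls (0 higher). Of 6 lymphatic endothelial markers, 5 were below the array median on all arrays (Prox1, Lyve1, Pdpn, Mmrn1 and Reln; sums 41.9 to 47.4 and 36.9 to 41.9), Flt4 was the brightest, and Lyve1 and Reln were called lower as deposited. With array medians as reference 4 lymphatic markers were lower and with hybridization controls 3, whereas with poly-A controls 3 were higher and 0 lower.

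Mural cells, the pericytes and smooth muscle cells around vessels, are a known source of Angpt1. Of 8 of their markers, Pdgfrb rose and Notch3, Des and Mcam fell as deposited (4 higher and 3 lower relative to poly-A controls, 1 and 5 relative to hybridization controls), and Rgs5, Kcnj8 and Abcc9 were below the array median on all arrays. Their summed signal was 903 to 984 in WT and 1454 to 1466 in DKO, chiefly from Pdgfrb (597 ± 59.0 and 1351 ± 8.52, SD, n = 3 each), which fibroblasts express too. Of 7 leukocyte markers Cd14 and Cd68 rose and 0 fell as deposited, with sums of 167 to 187 and 472 to 516. These sums came chiefly from Cd14 alone (99.9 ± 8.32 and 401 ± 24.5, SD, n = 3 each). Leukocyte markers called lower numbered 4 relative to array medians and 2 relative to hybridization controls, and relative to poly-A controls 6 were higher. Csf1r was not called as deposited, and Ptprc, Tyrobp, Adgre1 and Fcer1g were below the array median throughout. Of 6 epithelial markers 4 were called lower (Epcam, Krt8, Cldn4 and Cldn7) and 0 higher as deposited (sums 55.3 to 56.7 and 36.9 to 44.1), against 0 lower and 1 higher relative to poly-A controls. The 13 fibroblast markers summed to 12426 to 13154 in WT and 19882 to 20846 in DKO. The part of these markers' cells in the differences of the members was not tested.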

How the data were processed

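Total RNA (6 µg per sample) of 6 samples was labelled and hybridized to Affymetrix arrays, per the labels' protocols. The authors deposited 1 linear intensity per probe set and array, with MAS5 named in the submitters' processing notes. Its version and scaling target were not found in the labels. Of 45101 probe sets, 64 were controls, and 34945 had 1 gene symbol in the platform annotation, which gave 18193 genes; 932 had several symbols and 9160 were unnamed here. Symbols were updated by Entrez number for 34741 of them. Every column matched a sample. Groups came from the sample titles. No detection calls were used.

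Signals were transformed as log2(signal + 16) and compared as DKO minus WT with limma 3.58.1 in R 4.3.3 (lmFit, eBayes with trend, two-sided, Benjamini-Hochberg over all genes, or over all probe sets for the further probe sets of a gene). Probe set ratios within an array used log2 of signals without the added constant and exact permutation tests. The fit was also run on simulated data with independent noise for each gene and array, which cannot show errors shared by all genes of an array. The members and the gene lists were chosen with earlier results of these data known. Named were all members; Abl1 and Abl2; up to 4 called genes per pathway list with the widest differences and no overlap; the direct partners Tek, Tie1, Flt4, Nrp1, Nrp2, Vegfd, Hif1a and Lpl; the brightest 3 and the dim genes of each marker list; and the 3 genes nearest to Angpt1. Other genes were named after their values were seen: Ptprb, Pgk1, Higd1a, Adm, Sema3c, Itgav, Itgb1, the fibroblast markers Pdgfra, Col1a2 and Col3a1, and those behind counts of 5 or fewer. Alternatives were other added constants, 4 other scalings, dim genes left out, probe sets averaged, probe sets with an x, s or a suffix left out, eBayes without trend, replicate number as a block, and each array left out. Promoter sequences are RefSeq's, build GRCm38.p6. The number of arrays limits the precision.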

Additional observations from a re-analysis of the deposited data

How the results depend on the processing

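Angpt1, Angpt2, Vegfa and Vegfc kept their direction and call in all 17 alternatives, and Vegfb in the 16 that gave it a value; leaving out probe sets with an x, s or a suffix, it had none. Leaving out each array in turn gave 5.25 to 5.39 for Angpt1, 0.45 to 0.61 for Angpt2, 1.05 to 1.13 for Angptl4, 0.71 to 0.83 for Vegfa, 0.46 to 0.63 for Vegfb, 0.99 to 1.03 for Vegfc, -0.51 to -0.40 for Pgf, 0.09 to 0.18 for Flt1 and -0.18 to -0.08 for Kdr. Called differences moved by over 1.5 times with probe sets averaged (Angptl4 0.55, Vegfa 0.48, Angpt2 0.30), with 64 added (Angptl4 0.55, Angpt2 0.31, Pgf -0.24), under poly-A spike scaling (Angpt2 0.92, Vegfa 1.22, Vegfb 1.02) and under hybridization spike scaling (Angpt2 0.34, Vegfb 0.27). Flt1 turned to -0.10 under hybridization spike scaling and to -0.059 with probe sets averaged, and Kdr turned to 0.15 under poly-A spike scaling; the cause was not tested. Members called lower numbered 2 under each of the quantile, median and hybridization spike scalings and 0 under poly-A spike scaling, where 2827 of all genes were lower (limma) and 10424 higher. At an unadjusted p under 0.05, 0 members were lower there. Of all genes, 9741 were lower under median scaling and 10722 under hybridization spike scaling. Receptors and co-receptors called lower numbered 2 with dim genes left out, without trend, with 1 added, under quantile scaling and with the replicate block, 3 under median and hybridization spike scaling, and 1 to 2 with an array left out. Lipoprotein lipase and PPAR genes gave 3 higher with dim genes left out, 2 lower with probe sets averaged, 1 lower under poly-A spike scaling and 2 to 4 lower with an array left out. Signal relay genes gave 4 higher under hybridization spike scaling, and 11 higher and 2 lower under that on poly-A spikes. VEGF partners gave 8 lower under median scaling. Under poly-A spike scaling 3 other angiopoietin-like genes were higher, oxygen-sensing genes were 8 higher and 3 lower, and HIF targets 7 higher and 9 lower. The remaining 275 counts, of all genes, members and pathway lists, stayed within 1.5 times. Marker lists were recounted under the scalings only and moved more, as given with each.

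The replicate numbers were not taken to pair the arrays: deviations of same-numbered arrays correlated at 0.04, 0.12 and 0.17, not all above 0.1, although each array correlated best with its own number. With the replicate block the calls of all 9 members were the same, with 4463 genes higher and 6481 lower. Signals near or below the array median, as for Angpt1 in WT, Tek, Tie1 and Kdr, limit what can be read.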
